A study of Mus musculus with 8 samples.

Results

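The chemokine family was followed in left ventricle as 66 genes: 40 ligands, 19 signalling receptors, 5 atypical receptors and 2 ligand pseudogenes. They were taken by gene symbol from a table of 55385 genes, as every symbol made of Ccl, Ccr, Cxcl or Cxcr and a number, with Cx3cl1, Cx3cr1, Xcl1, Xcr1, Ackr1 to Ackr4, Ccrl2, Ppbp and Pf4. The symbol rule itself uses no measured value, but the family was chosen with earlier results of these data known. Of the 66 genes, 33 had enough counts to be tested, 27 were detected under the filter on low counts, and 6 (Ccl20, Ccl26, Ccl27b, Cxcr1, Ccl19-ps1 and Ccl19-ps3) were at 0 counts in every library.

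The 8 RNA-seq libraries came from left ventricle of C57BL6 males, 4 of the genotype Mst1-TG and 4 of the genotype WT. Mst1-TG mice overexpress the Hippo pathway kinase Mst1 under the alpha-MHC (myosin heavy chain) promoter. This restricts the transgene to cardiomyocytes, a cell type other than the leukocytes, endothelium and fibroblasts known to make and sense most chemokines. Their label gives experimental dilated cardiomyopathy as the disease. WT mice are non-transgenic littermates, labelled as control, and no treatment is named for either group. The design text puts the animals of this submission at 3 weeks of age, whereas the extraction protocol says 3 months and the growth protocol lists 3 weeks and 5.5 months. Nothing in the labels says that every numbered sample is its own animal, so the tests cover the spread among these libraries, which may be technical.

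Chemokines are small secreted or membrane-anchored proteins that bind G protein-coupled receptors on leukocytes and guide them along gradients held on heparan sulfate. CC ligands (Ccl) mostly draw monocytes, lymphocytes and eosinophils, and CXC ligands (Cxcl) neutrophils or lymphocytes. Atypical receptors bind chemokines without G protein signalling and mostly remove them from the tissue. In heart, resident macrophages, endothelium and fibroblasts are known sources, and the Ccl2-Ccr2 axis is known for the entry of monocytes after injury.

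Libraries held 21193536 to 23809256 estimated counts. Stk4, the gene of the overexpressed kinase, was at 25.2 to 29.6 CPM (library-scaled counts per 1e6) in WT and at 1449 to 1747 CPM in Mst1-TG, which matches the labels. Summed cardiomyocyte markers reached 50305 ± 4172 CPM (SD, n = 4) in WT and 38596 ± 4045 in Mst1-TG. Of 15314 genes tested with edgeR, 3244 had higher and 3238 had lower levels in the transgenic group, with an adjusted p below 0.05. The median log2 fold change of all tested genes was 0.01 and became 0.29 when libraries were scaled by their totals alone in place of TMM factors. In bulk tissue, fewer cells of a type and less RNA per cell cannot be told apart.

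Among the 33 tested members, 12 were higher in Mst1-TG, 8 were lower and 13 did not pass the threshold. The share called higher was 36.4% of tested members against 21.2% of all genes tested, and the share called lower was 24.2% against 21.1%, so the lower share stood near the background. Over all 66 members the shares were 18.2% and 12.1%. The median log2 fold change of the tested members was 0.32. In 9 tested members (27.3%) every Mst1-TG library lay above every WT library, against 20.2% of all genes tested, and in 6 (18.2%) every one lay below, against 20.1%. Passing the filter mainly through 1 group favours a difference between the groups. In 23 of the tested members all 8 libraries exceeded the filter level, and of these 7 were higher (30.4%), 7 lower (30.4%) and 9 did not pass. Of the 13660 genes that met the same condition 21.7% were higher and 22.5% lower. With library totals in place of TMM factors the split moved to 15 higher (45.5%) and 4 lower (12.1%), against 48.4% and 10.4% of all genes tested, so that both shares then stood near the background.

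**Figure D1:**
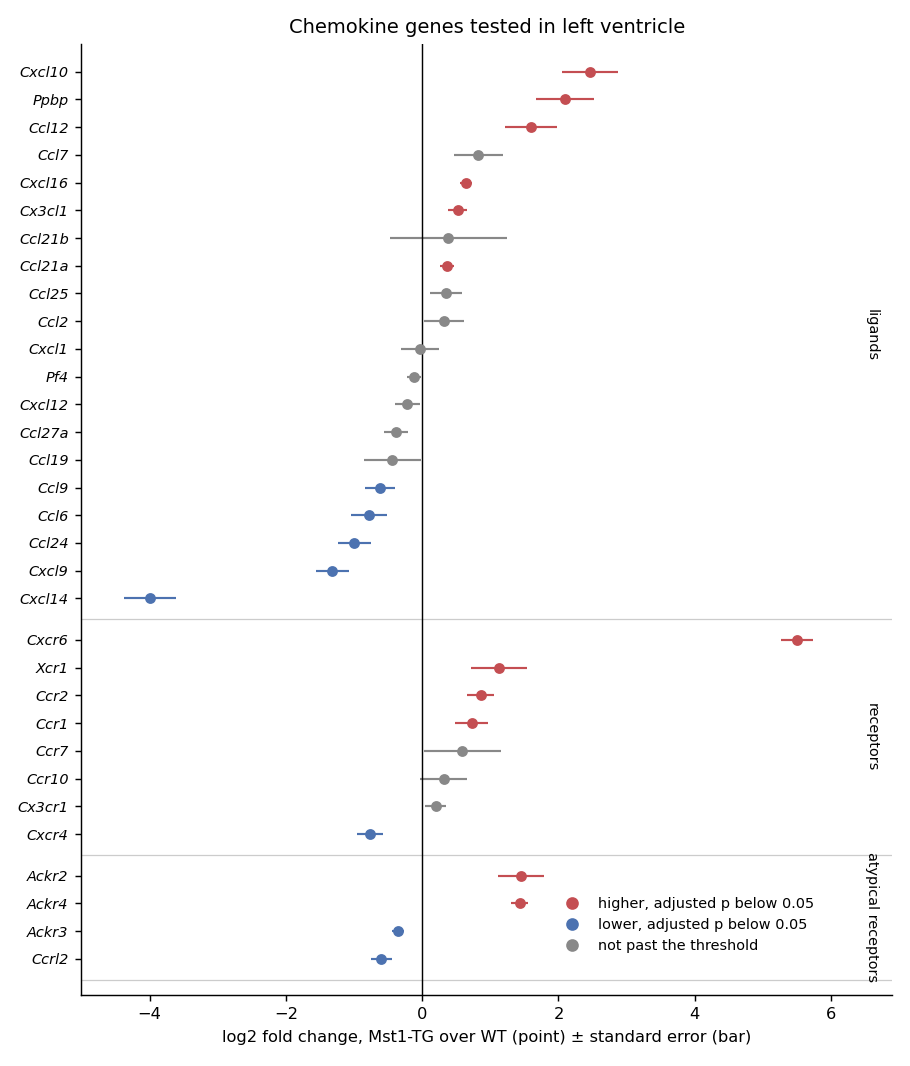
Log2 fold change (Mst1-TG over WT, x axis) of the tested members reported here, with bars for ± 1 standard error, grouped as ligands, receptors and atypical receptors. Red points were higher and blue points lower at an adjusted p below 0.05, and grey points did not pass. Cxcr6 stands farthest to the right at 5.50 and Cxcl14 farthest to the left at -3.99, and both directions occur in each of the 3 roles.

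Cxcr6, Cxcl14, Cxcl10 and Ppbp had the largest fold changes of the tested members, although Ccl17, under the filter, had a higher ratio of summed counts than Cxcl10 or Ppbp (9.58 against 5.56 and 4.30). The 250 bases before their RefSeq start sites (GRCm38.p6) are printed below, 5′ to 3′ on the strand of the gene. Capitals mark matches to motifs known from chemokine and Hippo target promoters, searched on both strands: TGANTCA for AP-1, GGAATG for TEAD, GAAANNGAAA for the interferon-stimulated response element (ISRE), AGATAA for GATA factors, and the NF-kB site by name. The windows are chr9:123806227-123806476 on the plus strand for Cxcr6, chr13:56296552-56296801 on the minus strand for Cxcl14, chr5:92348890-92349139 on the minus strand for Cxcl10 and chr5:90768268-90768517 on the plus strand for Ppbp.
Cxcr6: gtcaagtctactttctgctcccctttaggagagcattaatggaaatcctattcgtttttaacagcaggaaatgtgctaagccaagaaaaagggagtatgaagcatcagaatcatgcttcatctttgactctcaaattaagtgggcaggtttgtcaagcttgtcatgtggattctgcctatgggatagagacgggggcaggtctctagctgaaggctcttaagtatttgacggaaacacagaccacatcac
Cxcl14: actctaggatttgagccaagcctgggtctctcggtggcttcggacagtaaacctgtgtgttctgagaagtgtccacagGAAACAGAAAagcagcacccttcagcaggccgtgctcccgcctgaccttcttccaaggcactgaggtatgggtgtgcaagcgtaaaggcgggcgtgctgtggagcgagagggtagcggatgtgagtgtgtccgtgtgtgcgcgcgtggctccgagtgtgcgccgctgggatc
Cxcl10: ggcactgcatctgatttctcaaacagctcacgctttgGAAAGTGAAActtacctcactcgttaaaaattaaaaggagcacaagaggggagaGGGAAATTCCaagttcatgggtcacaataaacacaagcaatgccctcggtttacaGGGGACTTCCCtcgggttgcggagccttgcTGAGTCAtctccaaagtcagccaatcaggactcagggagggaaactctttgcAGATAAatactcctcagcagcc
Ppbp: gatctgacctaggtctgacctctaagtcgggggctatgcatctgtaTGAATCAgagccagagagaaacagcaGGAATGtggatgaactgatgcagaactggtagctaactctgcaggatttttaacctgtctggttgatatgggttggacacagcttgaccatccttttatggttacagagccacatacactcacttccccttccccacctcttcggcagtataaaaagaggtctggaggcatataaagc
The Cxcl10 window holds, in order, an ISRE, a pair of NF-kB stretches, an AP-1 match and a GATA match, the last of them beginning 22 bases before the start. Cxcl14, the ligand that was lowest in Mst1-TG relative to WT, has 1 ISRE match, which begins 172 bases before its start. Ppbp has an AP-1 and a TEAD match, 204 and 178 bases before the start. The Cxcr6 window has no match to any of the 5, which says only that these letters are not in this window.

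Of the 66 members, 49 had a RefSeq window, including 18 of the 20 past the threshold. NF-kB matches stood in 11 of the 49 (22.4%) against 7.01% of 27025 windows of all genes, and in 3 of 11 higher and 2 of 7 lower members. The higher members with a match were Ackr2, Ccr1 and Cxcl10, and the lower ones Ccl9 and Ccrl2. TEAD matches stood in 7 of 49 members (14.3%) against 12.6% of all windows, and of the members past the threshold only Ppbp had one. ISRE matches stood in 3 (Ccl19, Cxcl10 and Cxcl14) against 3.04% of all windows, AP-1 matches in 5 against 6.87%, and GATA matches in 5 against 10.3%. A match is a description of the letters and not of binding.

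Cxcr6 (chromosome 9, 123806475 to 123811760, GRCm38, to which all positions refer) was the tested member with the largest difference. It is the receptor of Cxcl16 and is known from tissue-resident and effector T cells and NK cells. WT 1 to 4 held 5, 3, 3 and 2 counts, and Mst1-TG 1 to 4 held 206, 186, 164 and 162. In CPM this was 0.159 ± 0.0566 (SD, n = 4) in WT and 7.46 ± 0.854 in Mst1-TG, so the groups lay far apart with little spread inside Mst1-TG. The log2 fold change was 5.50 ± 0.24 (SE; edgeR adjusted p = 5.69e-09), and the ratio of summed counts was 46.7 with an exact 95% interval of 27.1 to 88.1 for counting error. No WT library reached the filter level of 0.459 CPM.

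Markers of T cells and NK cells, the lymphocytes known to carry Cxcr6, had few counts. T cell markers summed to 3.10 to 4.89 CPM in WT and 3.28 to 4.89 CPM in Mst1-TG, with 3 of 10 tested and none past the threshold. The most counted were Cd4, Trac and Cd3d, and Cd3d was at 0.527 ± 0.186 and 0.497 ± 0.192 CPM. NK cell markers summed to 0.155 to 0.666 CPM in WT and 0.345 to 1.06 CPM in Mst1-TG, with none of 7 reaching the test and none at 0 in all libraries. The part of these cells in the Cxcr6 result was not tested. Cxcr6 lies inside the span of Fyco1, on the opposite strand and with no shared exon base, and Fyco1 fell from 440 ± 17.9 to 267 ± 30.5 CPM (log2 fold change -0.72).

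Cxcl16, its ligand, rose as well. It is a transmembrane chemokine that is cut from the cell surface by Adam10. Its levels in WT 1 to 4 were 15.5, 15.2, 15.4 and 14.2 CPM, and in Mst1-TG 1 to 4 they were 21.8, 23.2, 27.8 and 21.2 CPM. All Mst1-TG libraries were above all WT libraries, with a log2 fold change of 0.64 ± 0.09 and an adjusted p of 0.000108. Zmynd15 overlaps it on the opposite strand over 552 of 3021 exon bases and was also higher (3.80 ± 0.738 to 6.04 ± 0.802 CPM, adjusted p = 0.00488). The strand setting of the counting is not given in the sources used here, and 18.5% of the 31-base words of Cxcl16 are shared with another gene, nearly all of them with Zmynd15, when both strands count, so reads from those bases cannot be told apart. Over 36 ligand-receptor pairs of the family, both partners were tested in 12 and both were higher in 2, Cxcl16 with Cxcr6 and Ccl12 with Ccr2. Ccl6 and Ccl9 went the other way from their receptor Ccr1, being lower while it was higher. Taken singly, 36.4% of the tested members were higher. A pair needs both partners, so that share is not its background, and members such as Ccr2 stand in several pairs. Whether pairs with both partners higher were more frequent than their background was not tested.

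Cx3cl1 (fractalkine), the other transmembrane ligand, holds and draws Cx3cr1-bearing monocytes and macrophages. Levels in WT 1 to 4 were 7.51, 11.4, 11.2 and 11.6 CPM, and in Mst1-TG 15.4, 15.7, 16.3 and 12.4 CPM. The groups did not overlap although Mst1-TG 4 came close to WT 4, and the log2 fold change was 0.52 ± 0.14 (adjusted p = 0.00894). Its receptor Cx3cr1 did not pass, with a WT level of 14.3 ± 2.18 CPM against 16.5 ± 3.48 CPM (log2 fold change 0.20 ± 0.15, adjusted p = 0.324). That interval neither shows a rise nor shows that the receptor was the same in both groups.

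**Figure D2:**
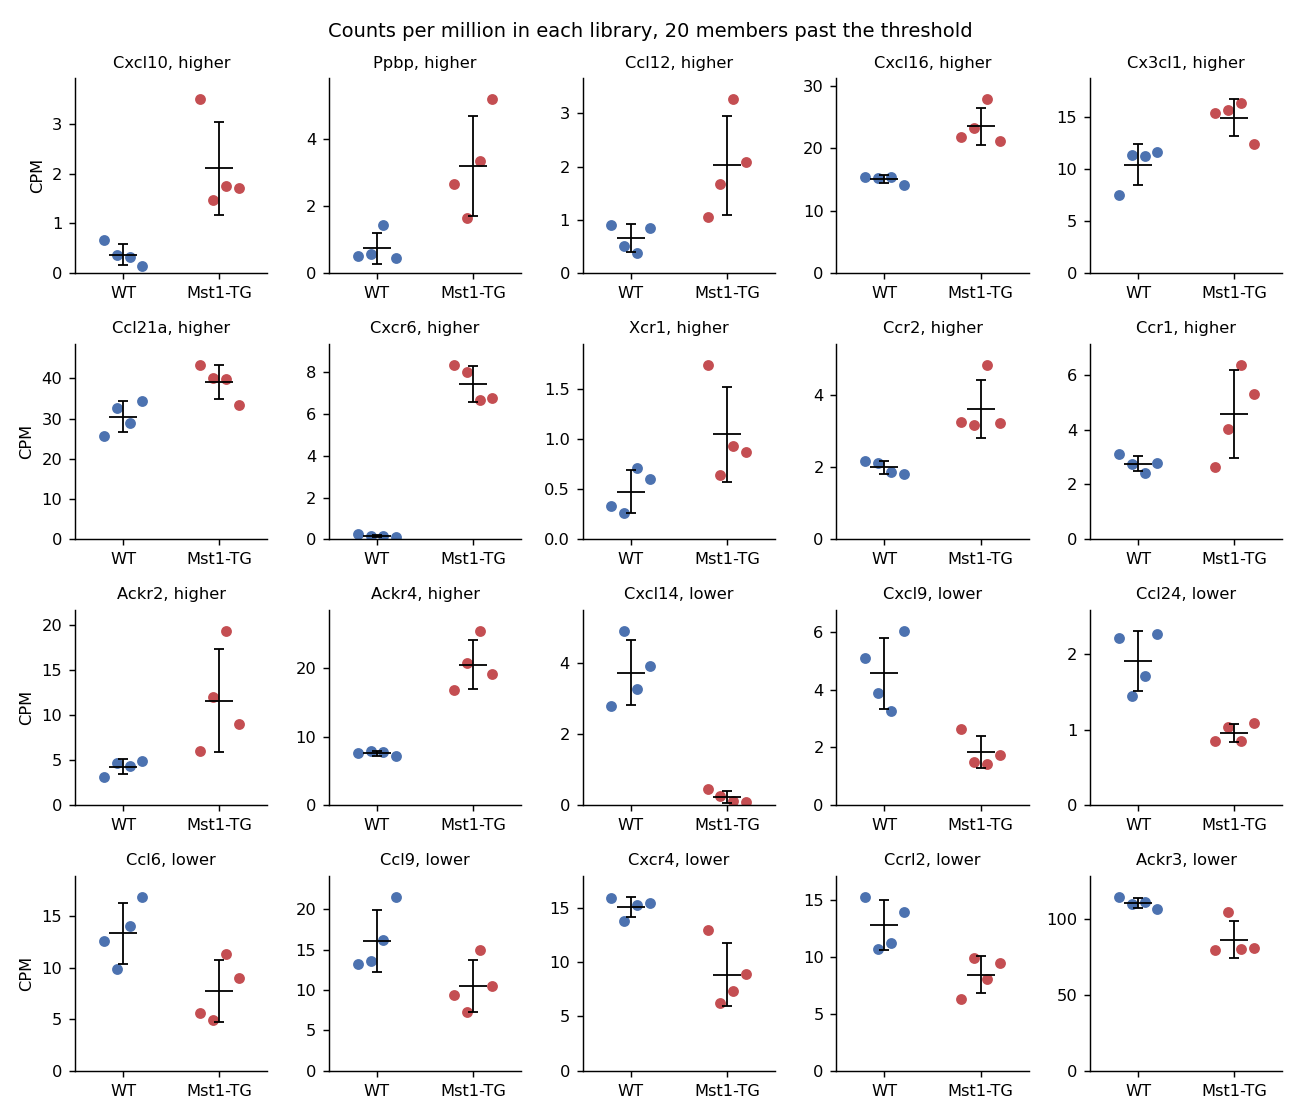
CPM (y axis, from 0) of the 20 members past the threshold in each of 4 WT (blue) and 4 Mst1-TG (red) libraries, with the mean as a bar and ± 1 SD. The groups are apart in 15 panels and overlap in Ccl21a, Xcr1, Ccr1, Ccl6 and Ccl9.

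The interferon-inducible ligands of Cxcr3 moved in opposite directions. Cxcl9 and Cxcl10 lie next to each other on chromosome 5 (92321347 to 92365485 with Cxcl11) and draw activated T and NK cells. Cxcl10 was at 0.661, 0.362, 0.333 and 0.151 CPM in WT 1 to 4 and at 3.49, 1.47, 1.75 and 1.71 CPM in Mst1-TG 1 to 4. Every Mst1-TG library was above every WT library, with Mst1-TG 1 highest (log2 fold change 2.46 ± 0.41, adjusted p = 0.000319), and 1 WT library reached the filter level. Cxcl9 was at 5.10, 3.88, 3.28 and 6.05 CPM in WT and at 2.63, 1.51, 1.43 and 1.76 CPM in Mst1-TG. Here all Mst1-TG libraries were below all WT libraries (-1.32 ± 0.24, adjusted p = 0.000724). Per kb of longest transcript, Cxcl9 was above Cxcl10 in WT (1.58 against 0.278 CPM per kb) and below it in Mst1-TG (0.634 against 1.56).

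Cxcl11, the third ligand of Cxcr3, had 1 count in all, and Cxcr3 itself had 15 counts in WT and 20 in Mst1-TG (ratio 1.13, 95% interval 0.549 to 2.37). Cxcl10 shares 133 of 2252 exon bases with Art3 on the opposite strand, and Art3 fell (log2 fold change -0.69). Reads from the shared bases cannot be told apart without the strand setting. Among the inducers and regulators of chemokine transcription, Ifng had no count in any library.

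Cxcl14, a homeostatic ligand made mainly by epithelia and stroma, showed the largest fall of the tested members. Its levels were 2.79, 4.91, 3.28 and 3.93 CPM in WT 1 to 4 and 0.446, 0.259, 0.122 and 0.0836 CPM in Mst1-TG 1 to 4. No library overlapped, and the log2 fold change was -3.99 ± 0.38 (adjusted p = 2.20e-06). Its gene lies on chromosome 13 (56288643 to 56296551). Mst1-TG 1 to 4 held 11, 6, 3 and 2 counts, and only 1 of them reached the filter level. That level is taken on library totals without TMM factors, unlike the CPM given here. It fell while fibroblast markers, a stromal list, rose: 8 of 9 were higher (88.9%, against 21.2% of all genes tested). The sum of these markers went from 4291 to 5175 CPM in WT to 8085 to 10083 in Mst1-TG. Their part in the Cxcl14 result was not tested.

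Of the platelet ligands, Ppbp rose and Pf4 did not pass. Ppbp and Pf4 are both stored in platelet alpha granules, and their genes are neighbours on chromosome 5 (90768518 to 90770063 and 90772435 to 90773383). Ppbp was at 0.519, 0.569, 1.43 and 0.454 CPM in WT 1 to 4 and at 2.68, 1.64, 3.34 and 5.18 CPM in Mst1-TG 1 to 4. The Mst1-TG libraries were all higher, though WT 3 reached close to Mst1-TG 2 (log2 fold change 2.10 ± 0.42, adjusted p = 0.00168). The level of Pf4 was 20.7 ± 1.55 CPM in WT against 19.0 ± 2.72 CPM in Mst1-TG, which did not pass (-0.12 ± 0.10, adjusted p = 0.377). Pf4 is also known from macrophages.

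Among platelet and megakaryocyte markers 1 passed, and their sum overlapped between the groups. The sum ranged from 5.04 to 8.80 CPM in WT and from 8.07 to 20.4 in Mst1-TG, and Mst1-TG 4 was highest in both. Of 5 tested markers out of 9, only Itga2b was higher (2.15 ± 0.555 to 5.25 ± 2.31 CPM, adjusted p = 0.00553), and none was at 0 in all libraries. The exact permutation p of the sum was 0.0571 (0.143 adjusted over 15 lists), and its part in the Ppbp result was not tested.

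Of the Ccr2 ligands, Ccl12 rose, whereas Ccl2 and Ccl7 did not pass. All of them draw monocytes, and their genes sit in one cluster on chromosome 11 (82035571 to 82305690). Ccl12 was at 0.897, 0.517, 0.380 and 0.857 CPM in WT 1 to 4 and at 1.05, 1.68, 3.26 and 2.09 CPM in Mst1-TG 1 to 4. The groups were apart, but Mst1-TG 1 was only just above WT 1 (log2 fold change 1.60 ± 0.38, adjusted p = 0.0042). Ccl7 had 0.82 ± 0.36 (adjusted p = 0.0841) and Ccl2 0.32 ± 0.29 (adjusted p = 0.403). Ccl7 passed when single libraries were left out: without Mst1-TG 1 its adjusted p was 0.0479 and without Mst1-TG 2 it was 0.0357.

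Ccr2, their receptor on classical monocytes and the macrophages derived from them, was higher. WT 1 to 4 were at 2.17, 2.12, 1.85 and 1.81 CPM and Mst1-TG 1 to 4 at 3.24, 3.15, 4.81 and 3.22 CPM. The lowest Mst1-TG library was above the highest WT library, and Mst1-TG 3 stood above the other Mst1-TG libraries (log2 fold change 0.86 ± 0.19, adjusted p = 0.003). Monocyte markers summed to 5.69 to 7.60 CPM in WT and 5.47 to 9.26 CPM in Mst1-TG, with 1 of 4 tested (Ms4a4c, 0.214 ± 0.170 to 0.637 ± 0.185 CPM) higher out of 6 and none at 0. Ly6c2, the most counted, leaned the other way (4.05 ± 1.00 to 3.37 ± 0.953 CPM, log2 fold change -0.27 ± 0.23) and did not pass. Plac8 and Spn had 0.88 ± 0.53 and 0.30 ± 0.23 and did not pass either. Mst1-TG 3 had the highest sum. The part of monocyte number in the Ccr2 result was not tested.

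Ccl6, Ccl9 and Ccl24, which macrophages are known to make, were lower. Of 20 tested ligands of the family, 5 were lower and 6 higher, Ccl12, Cxcl10 and Cxcl16 among the higher ones. The lower genes therefore do not stand for macrophage ligands as a class. Pf4, also known from macrophages, did not pass, and the calls of Ccl6 and Ccl9 were lost in 6 and 8 of 16 alternatives. Ccl6 and Ccl9, ligands of Ccr1, are neighbours on chromosome 11 (83572919 to 83593087). Ccl6 went from 13.3 ± 2.92 to 7.71 ± 3.00 CPM (log2 fold change -0.79 ± 0.26, adjusted p = 0.0372), and Ccl9 from 16.1 ± 3.84 to 10.5 ± 3.23 CPM (-0.61 ± 0.22, adjusted p = 0.0473). Their groups overlapped: Mst1-TG 3, the highest Mst1-TG library for both, exceeded WT 2. Without Mst1-TG 1, Mst1-TG 2, WT 1, WT 3 or WT 4 the adjusted p of Ccl6 was 0.0857, 0.0765, 0.0647, 0.0777 and 0.0944. Without Mst1-TG 1, Mst1-TG 2, Mst1-TG 4, WT 2, WT 3 or WT 4 that of Ccl9 was 0.113, 0.100, 0.0952, 0.0544, 0.0916 and 0.122.

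Ccl24 (eotaxin-2), which draws eosinophils through Ccr3, was lower without overlap. It was at 2.22, 1.45, 1.71 and 2.27 CPM in WT 1 to 4 and at 0.851, 1.04, 0.856 and 1.09 CPM in Mst1-TG 1 to 4. All Mst1-TG libraries lay in a narrow range below WT (log2 fold change -0.995 ± 0.25, adjusted p = 0.00521). Ccr3 had 1 count in all. Macrophage markers as a sum overlapped between groups (441 to 532 CPM in WT, 405 to 565 in Mst1-TG, exact permutation p = 0.686). Within that list none of 15 tested was higher and 5 were lower (33.3%, against 21.1% of all genes tested): Cd163, Lyve1, Folr2, Timd4 and Cbr2, known from resident macrophages. Csf1r, C1qa and C1qb, the most counted, had log2 fold changes of 0.01, -0.03 and -0.06. No macrophage marker was at 0, and the part of these cells in the falls of Ccl6, Ccl9 and Ccl24 was not tested.

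Ccr1 and Xcr1 passed narrowly. Ccr1, a receptor on monocytes and neutrophils, was at 3.12, 2.74, 2.43 and 2.77 CPM in WT and at 2.63, 4.02, 6.36 and 5.31 CPM in Mst1-TG. Mst1-TG 1 lay inside the WT range (log2 fold change 0.73 ± 0.24, adjusted p = 0.0263). Without Mst1-TG 3, Mst1-TG 4, WT 2, WT 3 or WT 4 the adjusted p of Ccr1 was 0.0946, 0.0758, 0.0596, 0.0789 and 0.0546. Neutrophil markers summed to 5.12 to 9.13 CPM in WT and 5.84 to 12.7 CPM in Mst1-TG, with none of 6 tested past the threshold and Elane at 0 in every library.

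Xcr1, known from cross-presenting dendritic cells, was at 0.330, 0.258, 0.713 and 0.605 CPM in WT and 1.74, 0.648, 0.938 and 0.878 CPM in Mst1-TG. Mst1-TG 2 was below WT 3, and the log2 fold change was 1.13 ± 0.41 (adjusted p = 0.0417). Without Mst1-TG 1, Mst1-TG 3, Mst1-TG 4, WT 1 or WT 2 the adjusted p of Xcr1 was 0.153, 0.0578, 0.0555, 0.109 and 0.111. Dendritic cell markers as a sum were lower without overlap but did not pass (42.4 to 45.9 CPM in WT, 34.4 to 39.8 in Mst1-TG, exact permutation p = 0.0286, 0.107 adjusted over 15 lists). Clec9a, a marker of the same dendritic cells as Xcr1, was at 5.81 ± 0.988 and 5.08 ± 1.32 CPM and did not pass. Of 7 markers 4 were tested, with Zbtb46 lower and none at 0. Zbtb46, also known from endothelium, made up most of the sum (35.9 ± 1.62 of 43.6 CPM in WT, 28.7 ± 1.37 of 36.5 in Mst1-TG). Flt3, Cd209a and Batf3 of the same list lay apart in the other direction, with WT means of 0.220, 0.257 and 0.493 CPM and Mst1-TG means of 0.570, 0.448 and 0.685 CPM. Of these only Batf3 was tested, and it did not pass (adjusted p = 0.26). The part of dendritic cells in the Xcr1 result was not tested.

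Cxcr6, Xcr1, Ccr1 and Ccr2, all higher, belong to a cluster of receptor genes on chromosome 9. Ccr9, Ccr1l1 and Ccr3 were under the filter. The log2 fold changes of the 4 higher genes ran from 0.73 for Ccr1 to 5.50 for Cxcr6.

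The Cxcl12 axis was the most abundant of the family. Cxcl12, the ligand of Cxcr4 and Ackr3 made by endothelium and stroma, took 50.3% of all counts of the 66 members, and Ackr3 took 15.1%. Cxcl12 was at 394, 293, 346 and 368 CPM in WT 1 to 4 and at 202, 276, 384 and 342 CPM in Mst1-TG 1 to 4. Mst1-TG 1 was the lowest of all libraries and Mst1-TG 3 was above 3 of the WT libraries, so the groups overlapped and the difference did not pass (log2 fold change -0.22 ± 0.18, adjusted p = 0.377).

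Both receptors of Cxcl12 were lower. Cxcr4, the signalling receptor, was at 15.9, 13.7, 15.2 and 15.4 CPM in WT and 12.9, 6.26, 7.34 and 8.86 CPM in Mst1-TG. The groups were apart, with Mst1-TG 1 nearest to WT (log2 fold change -0.77 ± 0.19, adjusted p = 0.00568). Ackr3, which takes up Cxcl12 without G protein signalling, was at 115, 110, 111 and 107 CPM in WT and 79.7, 104, 80.1 and 81.0 CPM in Mst1-TG. Mst1-TG 2 was just below the lowest WT library (log2 fold change -0.36 ± 0.09, adjusted p = 0.00423). Scaled by library totals, Ackr3 kept its direction but not its call (-0.07, adjusted p = 0.451). Blood endothelial markers, from a cell type known to carry these genes, summed to 1719 to 2176 CPM in WT and 1291 to 1871 CPM in Mst1-TG. Of these 8 markers, 3 were lower (Kdr, Cdh5 and Tie1, 37.5% against 21.1% of all genes tested), none was higher and none at 0. Their part in the falls of Cxcr4 and Ackr3 was not tested.

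**Figure D3:**
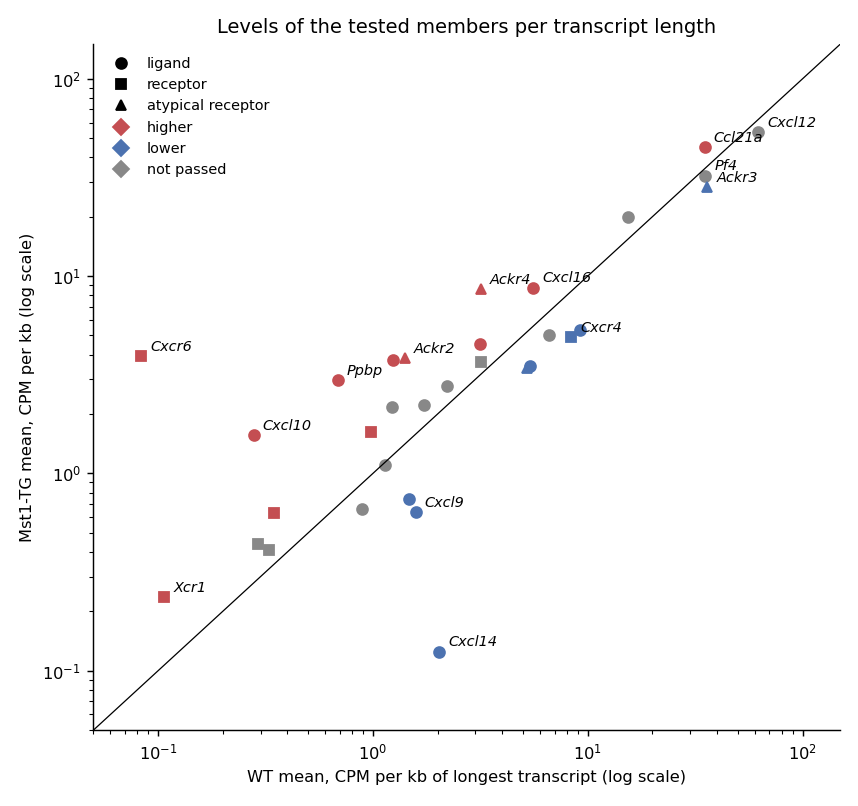
Mean level of the tested members reported here in WT (x axis) and Mst1-TG (y axis), in CPM per kb of longest transcript, both axes on a log scale, with the line of equal levels. Cxcl12 is the highest at 62.2 and 53.5 CPM per kb, and Cxcr6 and Cxcl14 lie farthest from the line.

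Per length, Cxcl12 (62.2 CPM per kb in WT) was followed by Ackr3 (36.1), Pf4 (35.2) and Ccl21a (35.0), and the next member outside the Ccl21 copies, Ccl6, was at 9.24. In WT the last 3 of these were close to one another. Cxcr6 rose from 0.0832 to 3.91 CPM per kb, to about the level of Ackr2 (3.83) in Mst1-TG.

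Ackr2 and Ackr4, scavengers of CC chemokines, were both higher. Ackr4, which takes up Ccl19, Ccl21 and Ccl25, was at 7.60, 7.96, 7.75 and 7.11 CPM in WT and at 16.8, 20.8, 25.4 and 19.2 CPM in Mst1-TG. WT libraries were nearly equal and all Mst1-TG libraries were more than 2 times as high (log2 fold change 1.43 ± 0.12, adjusted p = 9.36e-07). Acad11, which shares 479 of 5380 exon bases with Ackr4 on the opposite strand, fell (-0.94 ± 0.07). Ackr2, which takes up inflammatory CC ligands, was at 3.07, 4.70, 4.33 and 4.89 CPM in WT and 6.04, 12.0, 19.3 and 8.95 CPM in Mst1-TG. The groups were apart, and the Mst1-TG libraries spread over 3-fold with Mst1-TG 3 highest (1.45 ± 0.34, adjusted p = 0.00721).

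Ccrl2, which binds chemerin and presents it to Cmklr1, was lower. WT libraries were at 15.3, 10.7, 11.3 and 14.0 CPM and Mst1-TG libraries at 6.32, 9.93, 8.11 and 9.45 CPM. WT 2 was only slightly above Mst1-TG 2 (log2 fold change -0.60 ± 0.16, adjusted p = 0.00732). Scaled by library totals, Ccrl2 was at -0.32 with an adjusted p of 0.096. Chemerin itself (Rarres2) and Cmklr1 were higher, with log2 fold changes of 0.41 ± 0.11 and 0.47 ± 0.10. The remaining atypical receptor, Ackr1 of venular endothelium, was under the filter with 34 counts in WT and 75 in Mst1-TG, of which Mst1-TG 3 held 45.

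Ccl21, a ligand of Ccr7 made by lymphatic endothelium, is encoded by near-identical copies, and its counts must be read over all of them. Ccl21a was at 25.7, 32.7, 29.0 and 34.5 CPM in WT and at 43.3, 40.1, 39.8 and 33.3 CPM in Mst1-TG (log2 fold change 0.36 ± 0.10, adjusted p = 0.0116). Mst1-TG 4 was below WT 4. Ccl21b had 113, 128, 121 and 139 counts in WT and 298, 0, 270 and 215 in Mst1-TG. The 0 in Mst1-TG 2 sat beside 510 counts for the copy Gm21541, which had 8 to 35 counts in the other libraries.

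The transcripts of Ccl21b and Gm10591 are the same 402 bases in GENCODE M21, and both carried the same count in all 8 libraries. Ccl21a shares 80.6% of its 31-base words with other genes. Summed over Ccl21a, Ccl21b, Gm10591, Gm21541 and Gm13304, the level was 36.8, 47.1, 41.1 and 49.0 CPM in WT and 68.9, 62.1, 62.7 and 52.2 CPM in Mst1-TG. Every Mst1-TG library was then above every WT library, with a log2 fold change of 0.50 ± 0.10 (adjusted p = 0.00164). The value of Ccl21b alone (0.38 ± 0.86, adjusted p = 0.763) followed the 0 in Mst1-TG 2, and without that library it was 0.79 with an adjusted p of 0.000676. Summing the copies was chosen after the counts were seen.

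**Figure D4:**
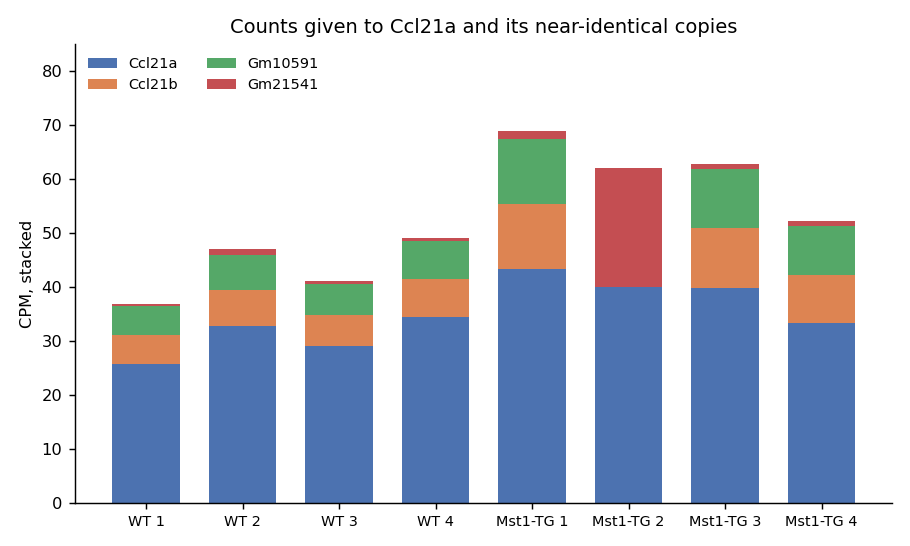
CPM (y axis, from 0) given to Ccl21a and its near-identical copies in each library, stacked. The stacks reach 36.8 to 49.0 CPM in the 4 WT libraries and 52.2 to 68.9 in the 4 Mst1-TG libraries, and in Mst1-TG 2 the share of Ccl21b and Gm10591 is at 0 while Gm21541 is at 22.0.

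Lymphatic endothelial markers, beside Ccl21, summed to 125 to 141 CPM in WT and 125 to 160 in Mst1-TG. Of 5 tested, Mmrn1, Reln and Pdpn were higher (60%, against 21.2% of all genes tested), Prox1 was lower and Flt4 did not pass, and none was at 0. Prox1 is also expressed in cardiomyocytes. The part of lymphatic cells in the Ccl21 result was not tested. Ccl19, the other ligand of Ccr7, was at 0.691 ± 0.0999 and 0.507 ± 0.326 CPM (adjusted p = 0.432), and Ccr7 at 0.576 ± 0.382 and 0.869 ± 0.615 CPM (adjusted p = 0.44). Of their words, Ccl19 shares 58.8% and Ccl27a 57.0% with other genes, so both values are uncertain.

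Other tested members gave no call. Cxcl1, a neutrophil ligand of Cxcr2, was at 1.08 ± 0.167 and 1.05 ± 0.303 CPM (log2 fold change -0.03 ± 0.28). Ccl25, the ligand of Ccr9, had 0.35 ± 0.24, and Ccr10 had 0.31 ± 0.35. Ccl27a, the ligand of Ccr10, had -0.38 ± 0.17 (adjusted p = 0.0911), and without WT 4 its adjusted p was 0.049. These intervals do not show that the genes were equal in the groups.

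Low-count ligands included a pair that passed in a fit with no filter. Ccl17 and Ccl22, the ligands of Ccr4 known from dendritic cells, flank Cx3cl1 on chromosome 8 (94745590 to 94812036). Ccl17 had 0, 1, 0 and 2 counts in WT 1 to 4 and 11, 5, 15 and 3 in Mst1-TG 1 to 4, a ratio of 9.58 with an exact 95% interval of 3.01 to 48.8. Ccl22 had 4, 4, 0 and 2 counts in WT and 16, 7, 16 and 13 in Mst1-TG, a ratio of 4.40 (2.21 to 9.70). In both, the lowest Mst1-TG library was above the highest WT library. Fitted with no filter on low counts, they had adjusted p-values of 0.00294 and 0.00492, and no other member under the filter passed. That fit called 3536 of 31236 genes higher, those over the filter included. Ccr4, the receptor of Ccl17 and Ccl22, had 2 counts in WT and 6 in Mst1-TG.

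Of the 27 members under the filter, 8 had a counting interval above 1 and 2 below. The share over all genes under the filter was not counted, so this split is not a result about the family. Ccl5, a ligand of Ccr1, had 16 counts in WT and 42 in Mst1-TG (ratio 2.22, 1.22 to 4.23). Its groups did not overlap, with the lowest Mst1-TG library at 0.259 CPM and the highest WT library at 0.258. Ccl8 had 12 and 41 (2.89, 1.49 to 6.04), with 24 of the 41 in Mst1-TG 3, and Ccr6 had 1 and 11 (9.30, 1.35 to 400). Cxcl17 also had 1 and 11, and the groups of Ccr6, unlike those of Cxcl17, did not overlap. Cxcr2 had 20 and 44 (1.86, 1.07 to 3.33), and Ackr1 is given above. Lower were Ccl11, the eotaxin, with 17 and 8 counts (0.398, 0.149 to 0.973), and Cxcr5, the receptor of Cxcl13 on B cells, with 35 and 17 (0.411, 0.216 to 0.753). B cell markers summed to 9.41 to 23.99 CPM in WT and 8.92 to 13.6 CPM in Mst1-TG. Of 7 markers 6 were tested, of which 4 did not pass and none was higher. Lower were 2 (33.3%, against 21.1% of all genes tested), among them Cd79b (log2 fold change -1.16 ± 0.34). None was at 0. Their part in the Cxcr5 ratio was not tested. These intervals cover counting error only and not the spread between samples.

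The intervals of Ccl3, Ccl4, Ccl28, Cxcl2, Cxcl3, Cxcl5, Cxcr3, Ccr4, Ccr8 and Ccr9 included 1. Ccl3 and Ccl4, inflammatory CC ligands, had 22 and 12 counts in WT and 15 and 8 in Mst1-TG. Ccl1, Cxcl11, Cxcl13, Cxcl15, Xcl1, Ccr1l1 and Ccr3 had no count in WT and at most 4 in Mst1-TG. Ccl20, Ccl26 and Cxcr1, at 0 in every library, share no 31-base word with another gene. For them 0 counts allow up to 0.0169 CPM over the 8 libraries, which is 3 counts of the total and covers counting error only. Ccl27b and Ccl19-ps3, also at 0, share 100% of their words with other genes, and Ccl19-ps1 shares 68.7%. Their reads may have been given to those genes, so 0 counts set no such limit for them.

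Mst1-TG 3 was the highest Mst1-TG library for 18 of the 33 tested members (54.5%), against 22.7% of all genes tested. It was also the highest in 10 of 15 marker lists, those of macrophages, monocytes, T cells, NK cells, B cells, dendritic cells, mast cells, blood and lymphatic endothelium and mural cells. Without it, 10 members were higher and 8 lower. No marker list passed an adjusted p of 0.05, since the smallest adjusted value was 0.107 and the smallest p that 4 against 4 samples can give is 0.0286.

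**Figure D5:**
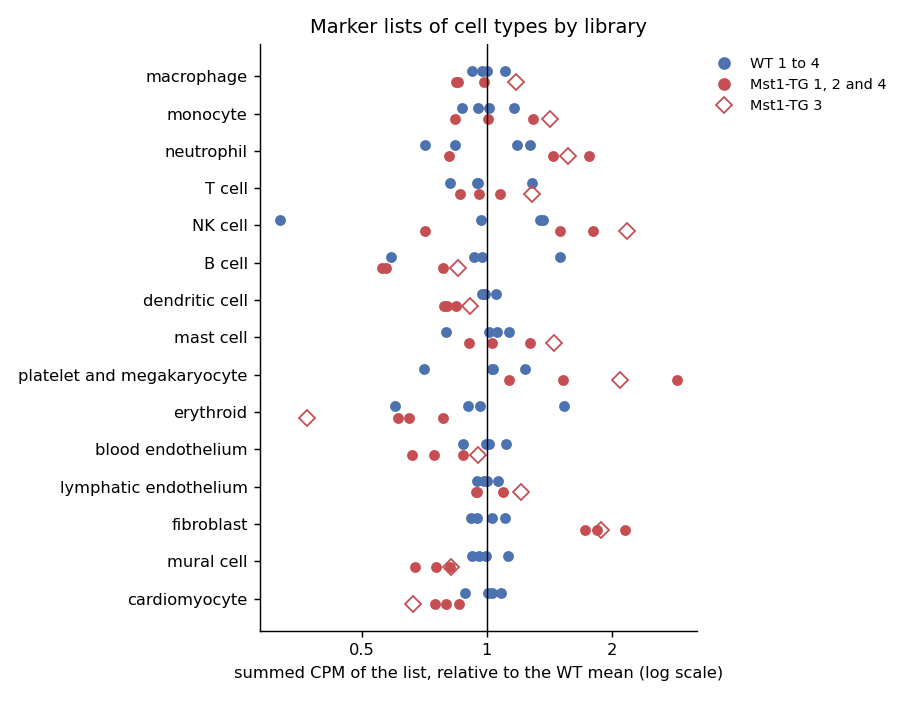
Summed CPM of 15 marker lists in each library, relative to the WT mean (x axis, log scale), with WT in blue, Mst1-TG 1, 2 and 4 in red and Mst1-TG 3 as an open diamond. Fibroblast markers are apart and higher in Mst1-TG (ratio of means 1.90), and the sums of dendritic cell, mural cell and cardiomyocyte markers are apart and lower (0.837, 0.765 and 0.767), the first carried mostly by Zbtb46.

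A sum follows its most abundant genes, and members of a list can go the other way. Among 7 mural cell markers Kcnj8, Myh11 and Acta2 were lower (42.9%, against 21.1% of all genes tested). Cspg4 of the same list was higher (42.2 ± 1.02 to 109.5 ± 4.02 CPM, log2 fold change 1.37 ± 0.06). Of 8 cardiomyocyte markers 4 were lower (50%, against the same 21.1%) and none higher.

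Of 91 tested genes in 5 lists of genes that act around the family, 30 were higher (33.0%) and 5 lower (5.49%), against 21.2% and 21.1% of all genes tested. The lists differed: their median log2 fold changes were 0.06 to 0.26, beside 0.01 for all genes tested, and signal transduction genes were called equally often in both directions. Of the proteins that shed, cleave or present chemokines, 15 of 16 were tested, 8 were higher (53.3%) and none lower, including Mmp2 (227 ± 15.0 to 625 ± 36.4 CPM), Sdc2, Sdc1 and Mmp14. Adam10, the sheddase of Cxcl16 and Cx3cl1, was higher by a log2 fold change of 0.29 ± 0.08 (adjusted p = 0.00887). Of 22 inducers and regulators of chemokine transcription, 17 were tested, 9 were higher (52.9%) and none lower. The higher ones included Tlr4 (0.99 ± 0.11), Nfkb2 (0.58 ± 0.09), Nfkbiz (0.79 ± 0.14) and Tnfaip3 (0.74 ± 0.15). Tnfaip3 is known to restrain NF-kB, so the share is not a count of inducers alone.

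Of 15 tested leukocyte adhesion genes 4 were higher (26.7%, near the 21.2% of all genes tested) and none was lower. Cd44, which binds hyaluronan, rose from 18.4 ± 2.71 to 55.5 ± 8.78 CPM, and Selp (P-selectin of endothelium and platelets) from 1.13 ± 0.0662 to 5.85 ± 3.08 CPM. Vcam1 and Icam1 rose by 0.28 ± 0.09 and 0.56 ± 0.19 on the log2 scale. Without Mst1-TG 3, or without WT 4, 2 genes of the list passed. Among 30 tested genes of receptor signal transduction, 4 were higher (Ptk2b, Grk5, Arrb1 and Rap1b) and 4 lower (Rasgrp2, Grk2, Grk6 and Plcb2), 13.3% in each direction and under the share of all genes tested, with Ptk2b at 1.45 ± 0.10 and Rasgrp2 at -1.25 ± 0.12. Of 14 tested chemoattractants and receptors outside the family, 5 were higher (35.7%) and 1 lower, with Mif at 0.84 ± 0.12, Gpr35 at 1.07 ± 0.20 and Il16 at -0.38 ± 0.11.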

How the data were processed

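RNA was depleted of ribosomal RNA and made into libraries with a directional kit, per the labels' protocols. The tools were bcl2fastq 2.19.1.403 and kallisto 0.46.0, per the submitters' processing notes. The authors deposited estimated counts for 55385 genes, unscaled and whole, so rounding changed 0 values. Build, annotation and strand setting were not given in the sources used here. Gene identifiers matched GENCODE M21 (GRCm38) with version for 63 of 66 members, and positions, lengths and shared 31-base words come from there. Members share no such word in 26 cases and over 10% in 13.

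Counts were fitted in edgeR 4.0.16 (R 4.3.3) over all 15314 genes left by filterByExpr (minimum count 10, total 15; 40071 set aside), with TMM scaling, a robust quasi-likelihood F test, Benjamini-Hochberg adjustment over all genes tested and a threshold of 0.05. The standard error is the log2 fold change over the root of F. CPM uses TMM-scaled library sizes, except for the filter level, which uses library totals. The biological coefficient of variation was 11.4% and the median standard error 0.11. Members under the filter have a ratio of summed counts with an exact 95% interval. Marker sums were compared by two-sided exact permutation. Tested on simulated data for this comparison (15122 genes), the fit recovered 93% of 2-fold and 70% of 1.5-fold changes. Of its calls 8.43% were false, above the nominal level. Only 100 genes were changed at each fold, against 3244 higher and 3238 lower in the data. The changed genes were drawn from those above a minimum level, so these rates need not hold for low-count members.

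The members and lists were chosen with earlier results of these data known. Members are reported by role, and some values are not reported here. Also named are genes overlapping a member that passed, Stk4, up to 4 genes of each pathway list with the smallest p, and up to 3 of each marker list with most counts. Named besides these, after their values were seen, were marker genes that passed in a list, Adam10, Rap1b, Grk2, Grk6, Plcb2, Il16, Ifng, Elane, Flt3, Cd209a and Batf3. Alternatives were other scalings, filters, DESeq2 1.42.0, limma-voom (limma 3.58.1), a replicate block and each library left out.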

Additional observations from a re-analysis of the deposited data

Results flagged for a closer look

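In 5 of 66 groups of 4 libraries, 1 library lay far from the rest of its group by Dixon's test at the 95% level, and chance flags about 1 in 20. Ackr3 in Mst1-TG 2 was at 104 CPM and the nearest library at 81.0. Cx3cl1 in WT 1 was at 7.51 CPM, below the nearest at 11.2. Cxcl10 in Mst1-TG 1 was at 3.49 CPM, with the nearest at 1.75. Ppbp in WT 3 was at 1.43 CPM, with the nearest at 0.569. Ccr2 in Mst1-TG 3 was at 4.81 CPM, with the nearest at 3.24. All of these members passed the threshold with these libraries left out in turn.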

How the results depend on the processing

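Of the 20 members past the threshold, 14 kept their call in every alternative run, which were other scalings and filters, DESeq2, limma-voom, a replicate block and each library left out. None changed direction. Ccl6, Ccl9, Ccr1 and Xcr1 lost the call with several single libraries left out. Ccr1 and Xcr1 also lost it in limma-voom (adjusted p = 0.0728 and 0.0501) and in the replicate block, and Ccl9 without the 20 genes with most counts and the mitochondrial ones (0.0513). Xcr1 was not tested at a minimum count of 20. Scaling by library totals alone gave 7409 genes higher and 1592 lower, and 4 members lower. It gave 18 signal transduction genes and 8 leukocyte adhesion genes past the threshold. Ccl6, Ccl9, Ccrl2 and Ackr3 then lost their calls, and Ccl25, Ccl7 and Cx3cr1 were called higher. With single libraries left out, members higher numbered 10 to 15 and members lower 6 to 8, and leukocyte adhesion genes 2 to 5. The replicate numbers did not pair the samples: the correlation of same-numbered deviations ran from -0.142 to 0.0746, and 1 of 4 Mst1-TG libraries correlated best with its own number. In the replicate block 10 members were higher and 8 lower, with 3064 and 3123 genes over the table. Depth limits the 27 members under the filter, of which 10 had 10 counts or fewer in all.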
